A study of Mus musculus with 16 samples.

Results

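The Zfp genes of the mouse encode zinc finger proteins, and 213 of the 375 genes whose symbol is Zfp followed by digits alone were taken as expressed in mIMCD3 cells, a cultured line from the inner medullary collecting duct of the mouse kidney. The 213 genes were chosen by their own counts: each had at least 200 reads in both libraries of WT cells given DMSO under isosmotic conditions, a floor that 10171 of all 55367 genes passed. Of the other 162 Zfp genes, 7 had no read in any library. Just inside the floor lay Zfp324 (201 and 226 reads), Zfp990 (249 and 204) and Zfp59 (245 and 205), and just outside lay Zfp365 (196 and 211), Zfp808 (196 and 207) and Zfp772 (194 and 213). All 213 passed the filter on low counts and were tested with the other genes.

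RNA-seq counts were read for 16 libraries, 2 for each of 8 conditions. WT cells first received 10 µM SFN (sulforaphane, an isothiocyanate that activates the transcription factor Nrf2) or its vehicle DMSO over 5 h, and were then kept isosmotic or moved to hyperosmotic medium of 600 mOsm, made with NaCl and urea, for 1 h or 6 h. Nrf2-/- cells, made in the same line with lentiviral Cas9 and a guide under blasticidin and puromycin selection, were given SFN and kept isosmotic or stressed for 1 h. Whether the Nrf2-/- line is 1 clone is not given in the sources used here, and Nrf2-/- cells with DMSO were not analysed here. Each arm had 1 isosmotic condition, set against both times of stress in WT cells. How long it was kept and whether its medium was changed are not given in the sources used here. Time after pretreatment and the medium change therefore cannot be told apart from hyperosmotic stress. The labels name the libraries as separate replicates, and the study's methods give 2 biological replicates for RNA-seq. Neither says that they came from separate cultures. The p-values therefore rest on the spread between libraries, estimated over all 16 in 1 fit, which may not be the spread between cultures.

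Most Zfp proteins carry C2H2 fingers, short loops held by a zinc ion that each read a few bases of DNA and are strung together in long arrays. Many join the array to a KRAB domain, which recruits the corepressor Trim28 and with it the histone methyltransferase Setdb1, and these proteins are best known for silencing transposable elements and imprinted regions. KRAB genes sit in tandem clusters and differ widely between mammals. A smaller group under the same naming binds RNA, among them Zfp36 (tristetraprolin), whose CCCH fingers bind AU-rich elements and speed the decay of cytokine and growth response mRNAs.

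By the protein translated from GENCODE M21, 87 of the 213 had a KRAB-like box and 3 or more C2H2 fingers, 102 had 3 or more C2H2 fingers without a match to the KRAB pattern, and 22 had 0 to 2 such fingers. Zfp267 was not matched and Zfp469 had no protein in the annotation. The pattern misses diverged boxes, so the KRAB-like count is a lower one. The median number of C2H2 fingers was 10 and the highest was 36. Chromosomes 7 and 17 held 47 and 30 of the genes, and 104 lay within 100 kb of another Zfp gene. Relative to exon length, levels in DMSO isosmotic cells ran from 0.480 to 44.2 CPM per kb with a median of 3.46. KRAB-like genes had the lowest class median, 2.40 CPM per kb, against 4.67 for other C2H2 genes and 7.69 for those with few fingers. The highest levels per kb belonged to Zfp706 (44.2), Zfp106 (32.6), an RNA-binding protein, Zfp207 (32.4), a spindle protein, Zfp703 (28.7), a transcriptional corepressor, and Zfp91 (24.9), a ubiquitin ligase.

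Total reads per library ran from 34484296 to 50774875, and the 213 genes held 0.623% to 0.733% of them in WT and 0.653% to 0.845% in Nrf2-/- libraries. Nfe2l2, the gene of Nrf2, had 386 to 433 reads in Nrf2-/- and 2496 to 5013 in WT libraries. Of 17 collecting duct markers 12 had at least 10 reads in every library, whereas Aqp2, Avpr2 and Elf5 had at most 11, 10 and 8. Raw counts of Pax2, Pax8 and Gata3 were lower in every Nrf2-/- than in any WT library, and those of Epcam, Cdh1, Cldn7 and Tfcp2l1 were higher. Pax2 had 819 to 977 reads in Nrf2-/- and 4993 to 39220 in WT libraries, and Epcam 6595 to 13157 against 1875 to 4529. Markers of other kidney and blood cell types summed to 9.37 to 13.9 CPM in Nrf2-/- and 21.2 to 49.8 CPM in WT libraries. Replicates agreed to a biological coefficient of variation of 0.0395 to 0.128 in 7 conditions, and the libraries of Nrf2-/- cells at 1 h stood apart with 0.348. Values below are CPM scaled by TMM, and a call is an adjusted p under 0.05 from edgeR's quasi-likelihood test over all 19509 genes tested. In bulk RNA, fewer cells with a transcript and less transcript per cell cannot be told apart, and all levels are relative to the rest of the library.

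**Figure D1:**
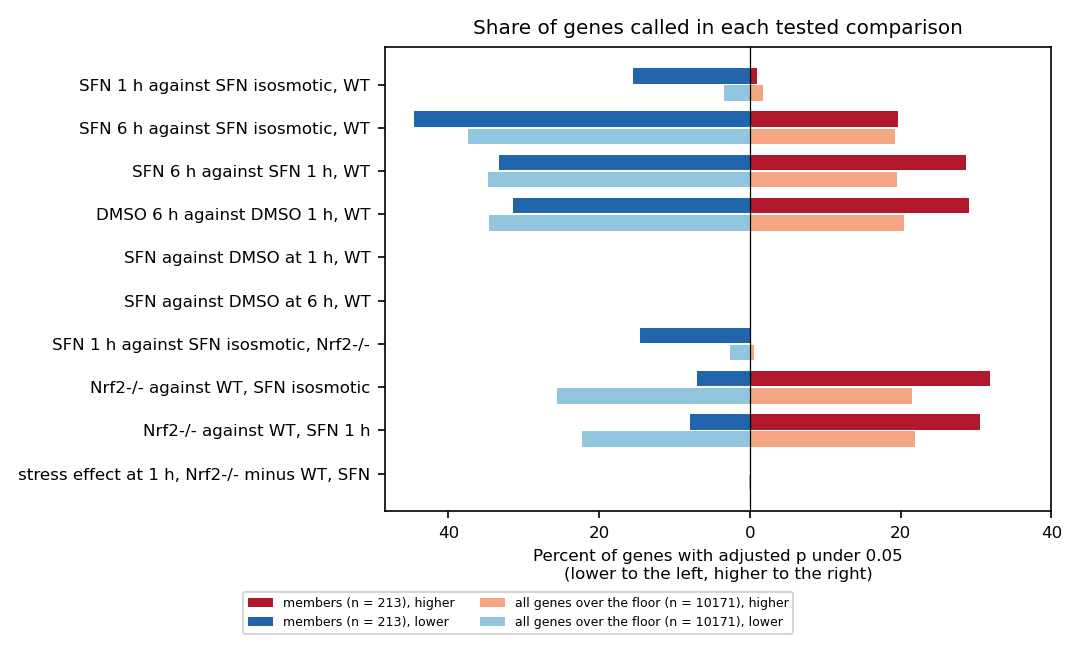
Percent of genes called higher (right) or lower (left) in each tested comparison, for the 213 Zfp genes (dark bars) and for the 10171 genes over the same floor (pale bars). At 1 h of stress with SFN 15.5% of the Zfp genes were lower in WT and 14.6% in Nrf2-/- cells, against 3.47% and 2.63% of genes over the floor.

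After 1 h of hyperosmotic stress with SFN a set of Zfp transcripts was called lower and almost none was called higher. With SFN in WT cells 33 of the 213 fell and 2 rose, where 3.58% of all genes tested fell and 5.94% rose. Among genes over the same floor 353 of 10171 (3.47%) fell and 184 (1.81%) rose. The median log2 fold change was -0.20 over the Zfp genes, 0.02 over all genes and 0.00 over the genes above the floor, -0.0048 before rounding. In Nrf2-/- cells 31 of the 213 fell and 0 rose by edgeR, where 2.81% of all genes fell and 4.36% rose. There were 64 at an unadjusted p under 0.05, and DESeq2 gave 39 falls and 1 rise. The Zfp median was -0.20. The means of the lines came from separate libraries, but 1 fit of all 16 libraries gave both lists their estimate of spread. Of the genes that fell, 26 were called in both lines, 78.8% of the WT list and 83.9% of the Nrf2-/- list. All 33 of the WT list had a lower fitted level at 1 h in Nrf2-/- cells too, as had 173 of the 213 there. For the 33 the log2 fold changes ran from -1.50 to -0.27, median -0.92. The overlap of the lists over all genes was not counted. With DMSO the same 33 genes had log2 fold changes of -1.78 to -0.11, given without a test because DMSO isosmotic libraries chose the genes. Over all 213 the DMSO median was -0.11, with 74 genes above zero, 139 below and a highest value of 1.03. For genes over the floor the DMSO median was -0.04. Isosmotic levels of the 213 were higher with SFN than with DMSO by a median of 0.10, also as a description.

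KRAB-like genes made up 24 of the 33 that fell in WT and 19 of the 26 called in both lines. Of 87 KRAB-like genes 27.6% fell in WT and 23.0% in Nrf2-/- cells, against 7.84% and 9.80% of the 102 other C2H2 genes and 4.55% of the 22 genes with few fingers in either line. The class medians in WT were -0.28, -0.14 and -0.13 on the log2 scale. KRAB-like genes also had lower levels than the other classes, and across 212 of the Zfp genes the log2 fold change had a rank correlation of 0.37 with mean level, against -0.13 across 19048 genes; genes are not independent replicates. The part of level in the class difference was not tested.

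Promoter sequence was read for 171 of the 213 genes that had an entry, as the 250 bases before the most upstream RefSeq gene start on GRCm38.p6. The windows below are those of the 3 genes with the largest mean fall at 1 h among the 24 of the 26 called in both lines that had an entry, which leaves out Zfp87, shown because these genes moved together. They lie at chr8:69774912-69775161 (minus strand), chr7:27731159-27731408 (plus strand) and chr7:12818861-12819110 (minus strand). The RefSeq start of Zfp866 lies inside the longer GENCODE gene. Each is written 5′ to 3′, and capitals mark a match on either strand to one of 8 motifs. These were TGGAAA, the core read by NFAT5, then TGACNNNGC, the antioxidant response core read by Nrf2, and TGACGTCA, the cyclic AMP response element. The others were CCAAT, read by NF-Y, GGGCGG or GC box, read by Sp1, GCCATNTT, read by YY1, the TATAAA of core promoters, and the CArG box of SRF.
Zfp866: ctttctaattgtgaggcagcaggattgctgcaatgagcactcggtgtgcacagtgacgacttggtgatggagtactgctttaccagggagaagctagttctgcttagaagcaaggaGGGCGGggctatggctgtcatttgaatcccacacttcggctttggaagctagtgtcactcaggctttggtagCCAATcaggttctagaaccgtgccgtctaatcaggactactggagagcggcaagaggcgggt
Zfp60: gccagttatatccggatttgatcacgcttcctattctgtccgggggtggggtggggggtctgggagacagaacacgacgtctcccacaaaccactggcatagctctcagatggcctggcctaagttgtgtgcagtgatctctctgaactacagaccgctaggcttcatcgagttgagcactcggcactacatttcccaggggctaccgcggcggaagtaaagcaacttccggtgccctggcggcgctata
Zfp329: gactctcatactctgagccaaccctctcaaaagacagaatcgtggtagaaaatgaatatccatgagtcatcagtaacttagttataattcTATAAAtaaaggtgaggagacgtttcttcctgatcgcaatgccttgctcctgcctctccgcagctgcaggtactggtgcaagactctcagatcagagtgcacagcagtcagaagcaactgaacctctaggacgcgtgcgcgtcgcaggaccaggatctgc

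Zfp866, a KRAB-like gene with 12 fingers on chromosome 8 (69761326 to 69791178, GRCm38), had 26.2 and 28.9 CPM in WT SFN isosmotic libraries and 8.53 and 8.17 CPM after 1 h. In Nrf2-/- cells it went from 28.7 and 28.0 to 10.0 and 11.8 CPM, and with DMSO from 23.3 and 22.0 to 7.06 and 6.15 CPM. The stressed libraries lay below all isosmotic ones in each arm. The log2 fold change was -1.72 ± 0.13 (SE) in WT (adjusted p = 2.33e-06) and -1.38 ± 0.13 in Nrf2-/- cells (adjusted p = 1.85e-05). Zfp866 shares 11% of its 75-base stretches with other transcripts and overlaps Atp13a1 on the opposite strand.

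Zfp87, a KRAB-like gene with 15 fingers on chromosome 13 (67515781 to 67526177), had the largest fall of the Zfp genes at 1 h in WT. Its levels were 6.62 and 6.65 CPM before and 1.83 and 1.55 CPM after 1 h, a log2 fold change of -1.98 ± 0.25 (adjusted p = 0.000172). In Nrf2-/- cells 7.08 and 5.62 CPM became 2.27 and 3.60 CPM (log2 fold change -1.11, adjusted p = 0.0111). The pair of stressed libraries differed more in Nrf2-/- than in WT cells.

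Zfp60 and Zfp626 lie within 100 kb of another Zfp gene on chromosome 7, at 27731389 to 27753702 and 27807196 to 27822916, and both are KRAB-like with 19 and 17 fingers. Zfp60 had 13.2 and 14.6 CPM in WT isosmotic and 4.75 and 3.87 CPM in stressed libraries, a log2 fold change of -1.69 ± 0.25. Zfp626 went from 11.4 and 12.6 to 3.78 and 4.25 CPM, a log2 fold change of -1.58 ± 0.22. Both were called in Nrf2-/- cells as well.

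Zfp329, with 12 fingers and no match to the KRAB pattern, showed how far an isosmotic level can differ between arms. It had 9.34 and 5.92 CPM in DMSO, 12.5 and 14.2 CPM in SFN and 18.8 and 18.2 CPM in Nrf2-/- isosmotic libraries. After 1 h the 3 arms read 4.98 and 5.03, 4.96 and 4.80, and 5.78 and 7.27 CPM. The fall was 1.45 ± 0.21 (SE) on the log2 scale in WT, a log2 fold change of -1.45, and -1.50 in Nrf2-/- cells. Zfp599 (KRAB-like, log2 fold change -1.45 in WT and -1.34 in Nrf2-/-) and Zfp101 (KRAB-like, -1.37 and -1.48) fell in both lines too, and Zfp958 was called in WT (-1.28) and not in Nrf2-/- cells (-0.92, adjusted p = 0.0671), a difference that itself was not called.

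Zfp36, the decay factor, fell in both lines. It had 14.5 and 14.2 CPM in WT SFN isosmotic and 7.80 and 8.04 CPM at 1 h, and 11.9 and 13.9 against 6.85 and 6.43 CPM in Nrf2-/- cells. The log2 fold changes were -0.86 in WT and -0.96 in Nrf2-/- cells. With DMSO the isosmotic level was higher, 26.6 and 24.5 CPM, and the 1 h level was 7.96 and 8.74 CPM, a fitted log2 fold change of -1.61. Isosmotic SFN and DMSO libraries did not overlap, with a fitted log2 difference of -0.83, a description because the DMSO libraries chose the genes. Of its relatives outside the naming rule, Zfp36l1 rose at 1 h in WT (log2 fold change 0.83, adjusted p = 0.000131), and Zfp36l2 had -0.35 (adjusted p = 0.0978). Zfp36 overlaps Gm44710 on the opposite strand, and strand use in the counting is not given in the sources used here.

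Only Zfp948 and Zfp618 were called higher at 1 h in WT cells with SFN. Zfp948, a 15-finger gene on chromosome 17, had 24.3 and 28.5 CPM isosmotic and 39.9 and 45.1 CPM at 1 h with SFN (log2 fold change 0.69 ± 0.13, adjusted p = 0.00476). In Nrf2-/- cells it had 26.0 and 29.9 against 32.3 and 24.7 CPM, which overlap. With DMSO it had 37.2 and 39.0 against 38.2 and 40.5 CPM. Zfp618 had 28.9 and 29.2 against 42.0 and 44.0 CPM (log2 fold change 0.57 ± 0.12, adjusted p = 0.00811).

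**Figure D2:**
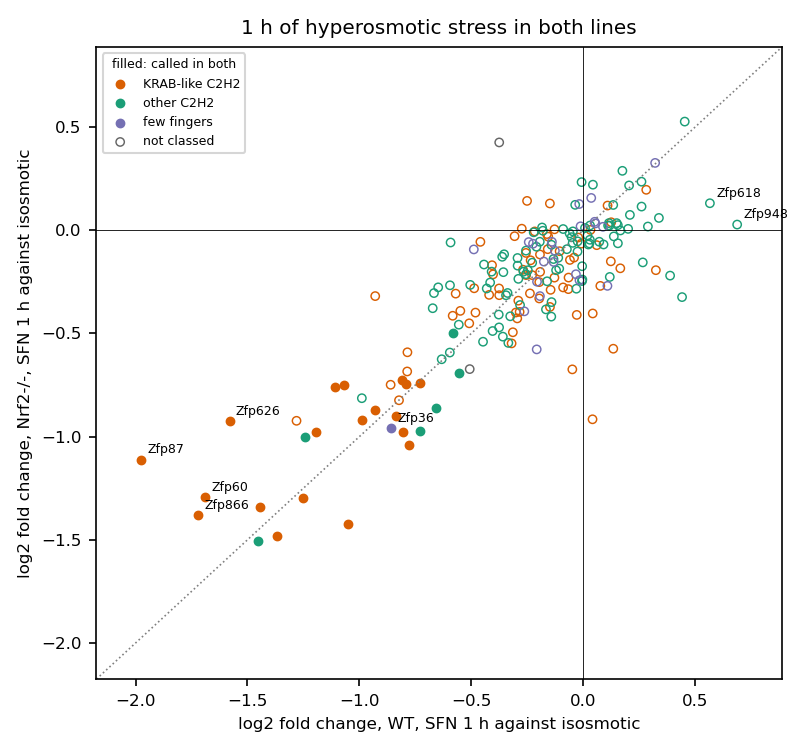
Log2 fold change at 1 h of stress against isosmotic for each of the 213 Zfp genes, in WT (x axis) and Nrf2-/- cells (y axis), both with SFN, coloured by protein class, filled where called in both lines. The 26 filled points all lie at or below -0.50 on both axes, and 19 of them are KRAB-like.

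The number of genes called at 1 h differed between settings. With the 12 WT libraries alone 64 Zfp genes fell and 7 rose in WT, and with each library's trend with GC content and length removed 82 fell and 2 rose. Leaving out any 1 of the 4 WT libraries compared, both isosmotic and both stressed, left 15 to 21 falls. In a fit of the 4 Nrf2-/- libraries alone 0 of the 213 were called by edgeR, with 31 in the fit of all libraries. Leaving out Nrf2-/- isosmotic replicate 1 or 2 gave 15 and 14 falls. Leaving out Nrf2-/- 1 h replicate 1 gave 55 falls and 9 rises, and leaving out replicate 2 gave 90 falls and 5 rises.

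The stress response of Nrf2-/- cells was compared with that of WT cells as a difference of log2 fold changes. None of the 213 was called, 0 by edgeR and 0 by DESeq2, with 10 at an unadjusted p under 0.05. Over all genes 0.0615% were higher and 0.0615% lower. The differences ran from -0.96 to 0.86 with a median SE of 0.23, and 201 of the 213 were under 0.5 in size. Zfp948 had the smallest p (difference -0.66 ± 0.19, unadjusted p = 0.00365, adjusted p = 0.326). Without Nrf2-/- 1 h replicate 1 the count became 22, and without replicate 2 it became 7.

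After 6 h of stress most of the Zfp genes had changed. Against SFN isosmotic cells 95 fell and 42 rose, where 22.9% of all genes fell and 24.7% rose. With the trends with GC content and length removed, 130 fell and 30 rose. Among genes over the floor 37.4% fell and 19.3% rose, against 44.6% and 19.7% of the Zfp genes. The medians were -0.28 for the Zfp genes and -0.16 for genes over the floor on the log2 scale. Of KRAB-like genes 56.3% fell and 13.8% rose, and of other C2H2 genes 37.3% fell and 24.5% rose. The class medians were -0.65 and -0.14.

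**Figure D3:**
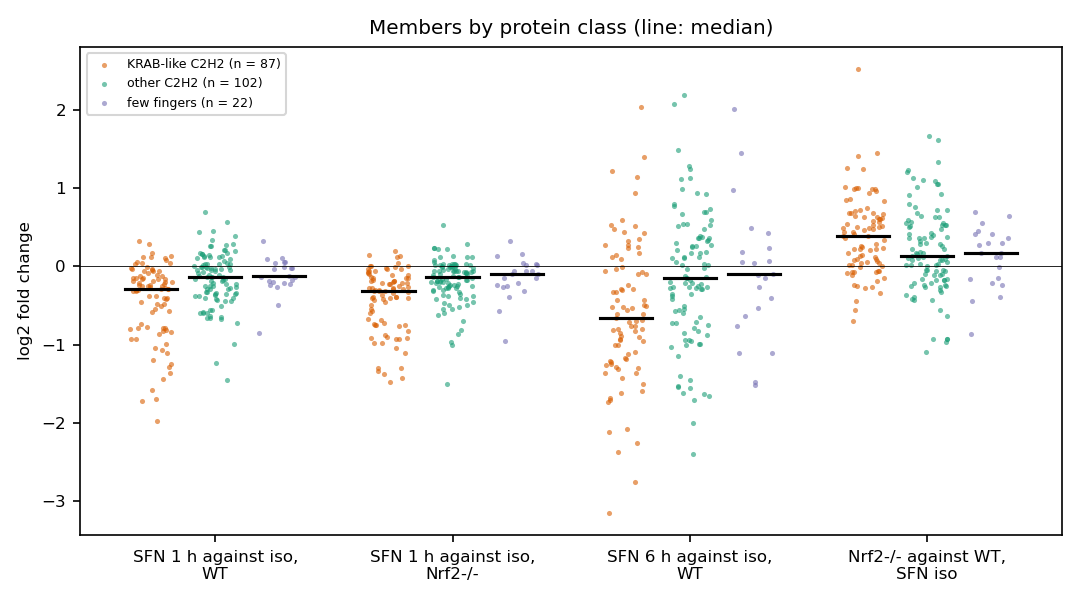
Log2 fold change of each Zfp gene (points) in 4 comparisons, split by protein class, with the class median as a line. The KRAB-like medians are -0.28, -0.31, -0.65 and 0.39 from left to right, and those of other C2H2 genes are -0.14, -0.14, -0.14 and 0.13.

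The step from 1 h to 6 h was measured with SFN and with DMSO in libraries that were not shared. With SFN 61 of the 213 rose and 71 fell, where 20.9% of all genes rose and 21.7% fell. With DMSO 62 rose and 67 fell, where 20.4% rose and 22% fell. Of the rises 58 were called in both arms, 95.1% of the SFN list and 93.5% of the DMSO list. Of the falls 63 were called in both, 88.7% and 94.0% of the lists, and 0 genes rose in one arm and fell in the other. Overlaps over all genes or over genes above the floor were not counted, so these shares cannot be called particular to the Zfp genes. Genes over the floor rose in 19.6% and fell in 34.7% of cases with SFN. The 58 shared rises held 21 KRAB-like and 30 other C2H2 genes, and the 63 shared falls held 29 and 27.

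Of the 33 genes that had fallen at 1 h with SFN, 18 rose from 1 h to 6 h with DMSO, in libraries outside the first contrast. Another 3 fell further (Zfp101, Zfp157 and Zfp229). In this step with DMSO 29.1% of the 213 rose and 31.5% fell, against 20.5% and 34.6% of genes over the floor. Over all genes tested the shares were 20.4% and 22%. In Zfp866 the level at 6 h was 26.8 and 26.9 CPM with SFN and 25.8 and 23.8 CPM with DMSO, near the isosmotic values above. Zfp87 read 5.34 and 4.45 CPM with SFN at 6 h, both below its SFN isosmotic libraries (log2 fold change -0.44, adjusted p = 0.136), and 5.07 and 5.46 CPM with DMSO. Zfp329 stayed low at 6 h, with 4.79 and 3.68 CPM with SFN and 4.0 and 3.89 CPM with DMSO. Zfp101 went on falling, from 8.19 and 8.72 CPM at 1 h to 3.08 and 3.40 CPM at 6 h with SFN and from 10.7 and 10.1 to 3.27 and 3.77 CPM with DMSO. Zfp36 read 13.8 and 15.8 CPM at 6 h with SFN, near its SFN isosmotic level, and 13.7 and 12.4 CPM with DMSO, under its DMSO isosmotic level.

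Zfp367, Zfp52 and Zfp296 had large late rises. Zfp367 had 33.6 and 39.5 CPM at 1 h and 181 and 174 CPM at 6 h with SFN, and 37.5 and 32.5 against 138 and 134 CPM with DMSO. The log2 fold changes from 1 h were 2.28 ± 0.14 (adjusted p = 1.58e-08) and 1.96 ± 0.14 (adjusted p = 6.06e-08). Zfp52, a KRAB-like gene, went from 23.2 and 23.8 to 108 and 94.3 CPM with SFN and from 25.5 and 23.8 to 97.4 and 89.2 CPM with DMSO. Zfp296, a 6-finger protein of pluripotent cells, went from 4.23 and 4.90 to 18.7 and 20.9 CPM with SFN and from 4.62 and 4.19 to 21.5 and 21.8 CPM with DMSO. In each of these genes the 6 h libraries lay above all others of WT cells. All 3 overlap another gene on the opposite strand.

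The promoter windows below belong to the 3 genes with the largest mean rise from 1 h to 6 h among the 58 called with both pretreatments. They lie at chr7:19577037-19577286 (plus strand), chr13:64153200-64153449 (minus strand) and chr17:21535289-21535538 (plus strand). In Zfp367 a CCAAT and a TGACNNNGC match share bases.
Zfp296: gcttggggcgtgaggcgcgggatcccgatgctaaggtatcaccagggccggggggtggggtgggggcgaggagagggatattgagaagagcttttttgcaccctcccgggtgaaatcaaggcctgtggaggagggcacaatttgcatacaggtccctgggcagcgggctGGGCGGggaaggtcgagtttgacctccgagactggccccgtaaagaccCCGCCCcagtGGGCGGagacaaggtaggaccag
Zfp367: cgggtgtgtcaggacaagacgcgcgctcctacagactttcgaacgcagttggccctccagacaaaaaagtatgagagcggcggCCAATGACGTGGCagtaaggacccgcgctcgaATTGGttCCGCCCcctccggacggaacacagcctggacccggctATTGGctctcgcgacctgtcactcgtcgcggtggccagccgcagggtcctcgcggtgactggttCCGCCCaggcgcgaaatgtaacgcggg
Zfp52: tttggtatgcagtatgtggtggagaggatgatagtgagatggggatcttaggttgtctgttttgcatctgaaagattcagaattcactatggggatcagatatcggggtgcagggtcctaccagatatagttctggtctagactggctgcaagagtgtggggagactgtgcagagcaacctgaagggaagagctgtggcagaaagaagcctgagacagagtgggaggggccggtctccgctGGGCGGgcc

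GGGCGG was found in each of the windows of Zfp296, Zfp367 and Zfp52, and TGGAAA in none of the 6. GGGCGG was held by 57.1% of the 49 late risers with a promoter, 33.3% of the 24 genes that fell at 1 h in both lines and 46.8% of the 47 late fallers, against 50.3% of Zfp promoters and 33.0% of 27025 promoters in all. CCAAT was held by 46.2% of Zfp and 34.5% of all promoters, and by 54.2% of the 72 KRAB-like ones. TGGAAA was held by 16.3% of the late risers, 17.0% of the late fallers, 16.7% of the genes that fell at 1 h, 21.1% of Zfp and 18.7% of all promoters. TGACNNNGC was held by 12.3% of Zfp and 10.1% of all promoters. GCCATNTT was held by 5.26% and 3.91%, TGACGTCA by 2.34% and 1.60%, the CArG box by 1.17% and 1.41%, and TATAAA by 6.43% and 13.0%. A match says only that these letters stand in the window.

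Zfp703, a corepressor known from luminal breast cancer, had 66.9 and 69.6 CPM at 1 h and 200 and 207 CPM at 6 h with SFN (log2 fold change 1.58 ± 0.12). With DMSO 67.7 and 67.4 became 208 and 192 CPM. Zfp948, called higher at 1 h with SFN, reached 128 and 113 CPM at 6 h (log2 fold change from isosmotic 2.19 ± 0.14, adjusted p = 1.98e-08). Its isosmotic level was lower with SFN (24.3 and 28.5 CPM) than with DMSO (37.2 and 39.0 CPM). At 6 h with DMSO it had 110 and 110 CPM. Zfp217, an oncogene product that works with corepressor complexes, rose from 31.2 and 34.8 CPM isosmotic to 78 and 83.1 CPM (log2 fold change 1.29). Zfp787 (1.49) and the KRAB-like Zfp560 (1.40) were the other 2 of the 8 largest rises against SFN isosmotic cells.

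The deepest falls by 6 h were in Zfp324, Zfp101, Zfp398 and Zfp9. Zfp324, a KRAB-like gene, had 8.42 and 8.80 CPM isosmotic, 7.51 and 6.47 CPM at 1 h and 0.999 and 0.934 CPM at 6 h with SFN, a log2 fold change of -3.15 ± 0.23 (adjusted p = 9.12e-08). With DMSO it had 4.79 and 5.00, then 6.74 and 7.34, then 1.10 and 1.39 CPM. Zfp398 went from 12.2 and 13.8 to 2.82 and 2.09 CPM with SFN (log2 fold change -2.40), and Zfp9 from 8.58 and 8.17 to 2.0 and 1.22 CPM (-2.38). Zfp398 and Zfp9 lie on chromosome 6. Zfp738 (-2.26), Zfp810 (-2.12), Zfp157 (-2.08) and Zfp956 (-2.0) completed the 8 largest falls. All but Zfp398 and Zfp956 of these 8 were KRAB-like.

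**Figure D4:**
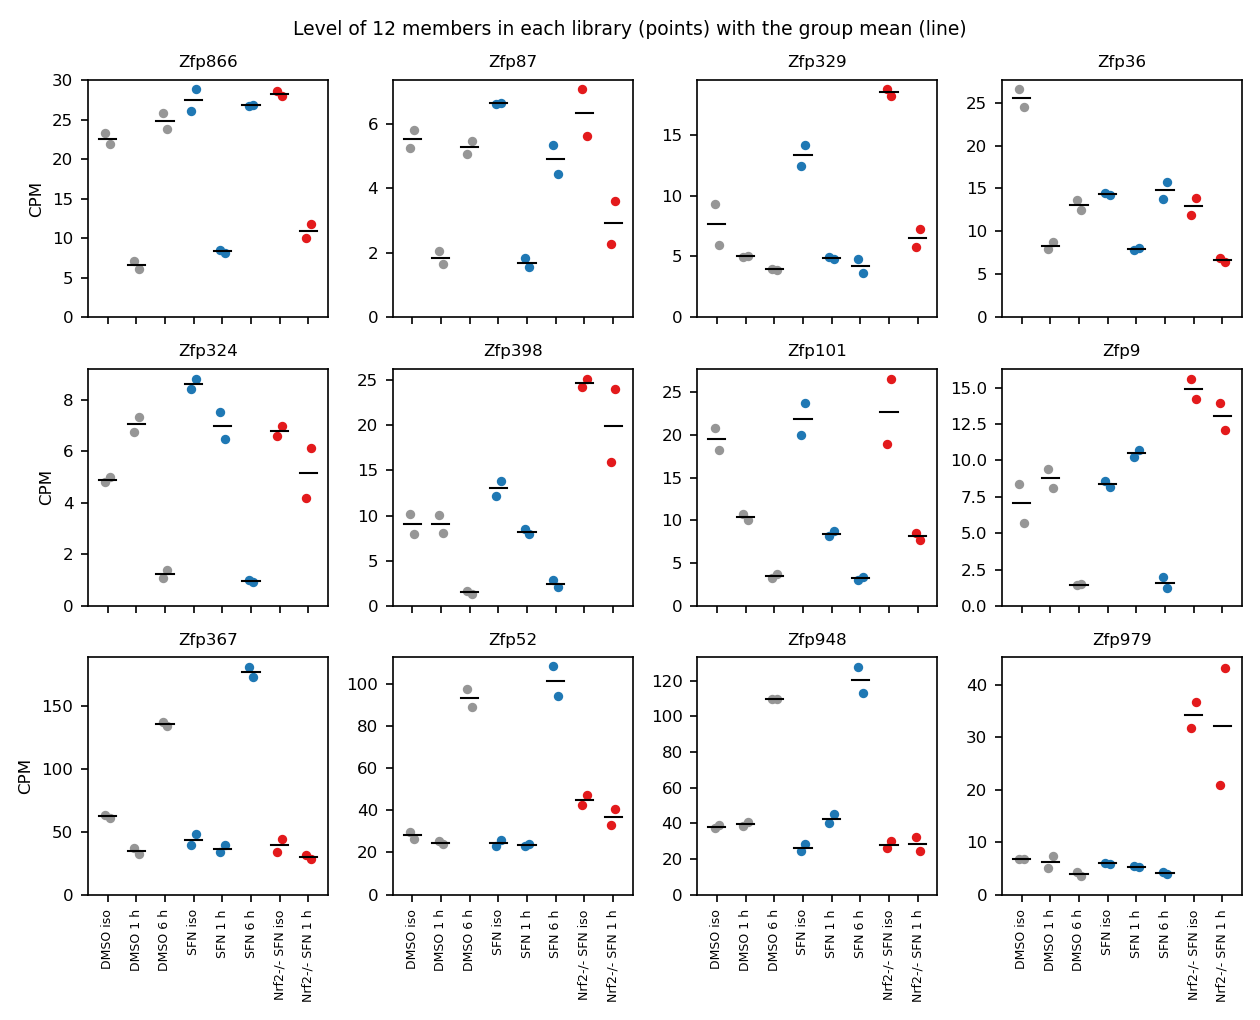
Level in CPM of 12 Zfp genes in each of the 16 libraries (points, grey DMSO, blue SFN, red Nrf2-/- with SFN) with the group mean as a line. Zfp866 and Zfp87 are lowest at 1 h, Zfp324, Zfp398, Zfp101 and Zfp9 are lowest at 6 h, Zfp367, Zfp52 and Zfp948 are highest at 6 h, and Zfp979 is high in Nrf2-/- cells.

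**Figure D5:**
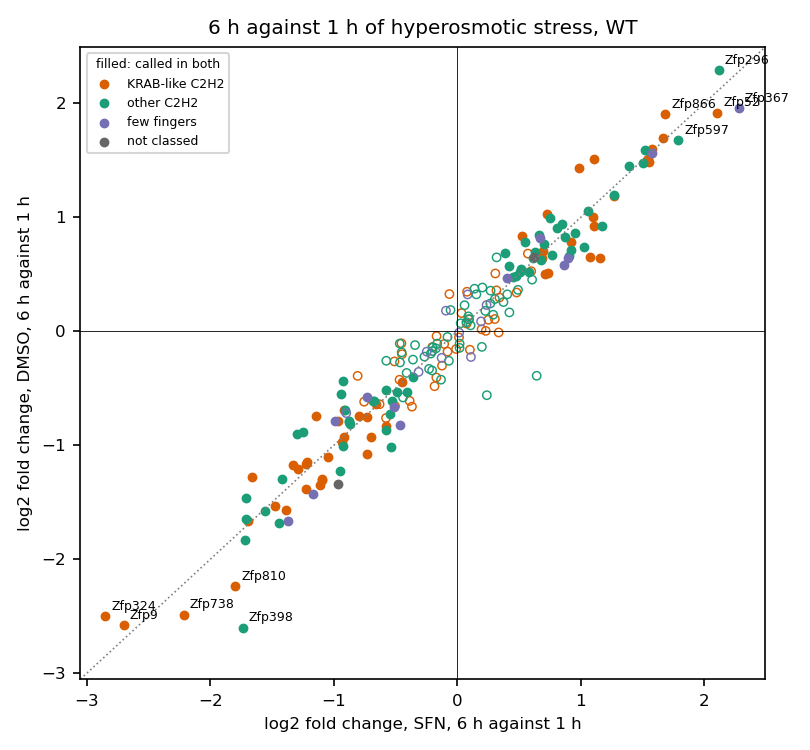
Log2 fold change from 1 h to 6 h of stress for each of the 213 Zfp genes in WT cells, with SFN (x axis) and DMSO (y axis), coloured by protein class, filled where called in both. The filled points lie in the upper right (58 genes) and lower left (63 genes), with 0 in the other quadrants.

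SFN and DMSO pretreatment were compared at the same time of stress, the question being whether SFN altered these genes. At 1 h 0 of the 213 were called, by edgeR, with 10 at an unadjusted p under 0.05 and 0 by DESeq2, where 0.0923% of all genes were higher and 0% lower. At 6 h 0 were called, with 11 at an unadjusted p under 0.05 and 0 by DESeq2, where 0.041% of all genes were higher and 0% lower. The log2 differences ran from -0.73 to 0.42 at 1 h and from -0.61 to 0.72 at 6 h, with median SEs of 0.17 at both times. They were under 0.5 in size for 210 and 208 of the 213. Zfp646 had the smallest p at 1 h (log2 difference 0.42 ± 0.11, adjusted p = 0.511) and Zfp472 at 6 h (-0.61 ± 0.20, adjusted p = 1.00). Of 14 Nrf2 target genes 9 were higher with SFN at 1 h and 3 at 6 h, with medians of 1.19 and 0.43. In a fit of the 4 libraries compared, 5 Zfp genes were higher and 3 lower at 1 h, and 1 was higher at 6 h. Under isosmotic conditions the median fitted difference of the Zfp genes was 0.10, with 138 above zero, as a description.

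Nrf2-/- cells had higher levels of many Zfp transcripts than WT cells. Among isosmotic SFN cells 68 of the 213 were higher and 15 lower, where 15.7% of all genes were higher and 18.4% lower. Among genes over the floor 21.5% were higher and 25.6% lower, against 31.9% and 7.04% of the Zfp genes. At 1 h, in other libraries but with the same estimate of spread, 65 were higher and 17 lower, where 15.3% and 16.2% of all genes were. The median log2 difference was 0.23 and 0.21. Of the higher genes 52 were called in both, 76.5% and 80.0% of the lists, and of the lower genes 11, 73.3% and 64.7%. None was higher in one and lower in the other (0 genes). Such overlaps were not counted over all genes or over genes above the floor, so they cannot be called particular to the Zfp genes. Of KRAB-like genes 32 of 87 were higher and 1 lower isosmotic, with a median of 0.39, and of other C2H2 genes 28 of 102 were higher and 11 lower, with a median of 0.13. With 1 line of each genotype here and no DMSO libraries, the loss of Nrf2 and other differences between the lines cannot be told apart. The markers of other cell types, 4 of 15 of which had at least 10 reads in every library, summed to less in all Nrf2-/- libraries than in any WT library, as given above, and their part in these results was not tested.

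The difference between the lines went with base composition. Across 212 Zfp genes the isosmotic log2 difference had a rank correlation of -0.51 with transcript GC content, and across 19048 genes -0.29. The Zfp genes had a median GC content of 45.1%, against 49.5% for all genes tested. With each library's trend with GC content and length removed, 64 Zfp genes were higher and 16 lower isosmotic, and 67 and 19 at 1 h. In a fit of the 4 libraries compared, 93 were higher and 20 lower isosmotic, and 12 higher and 2 lower at 1 h. Isosmotic, leaving out WT replicate 1 gave 34 higher and 14 lower, and leaving out Nrf2-/- replicate 2 gave 41 and 8. At 1 h, leaving out Nrf2-/- replicate 1 gave 98 higher and 29 lower, and leaving out WT replicate 1 or 2 gave 39 and 10 or 36 and 10.

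On chromosome 4, 9 of 12 Zfp genes were higher and 0 lower isosmotic, with a median log2 difference of 1.0. On chromosome 5, 8 of 13 were higher and 2 lower, and on chromosome 7, 6 of 47 were higher and 2 lower. These chromosomes were picked after their values were seen. Over all genes tested 15.7% were higher and 18.4% lower, and over genes above the floor 21.5% and 25.6%. The shares among all genes of these chromosomes were not counted, and whether other genes there differed alike was not tested. Zfp979, a KRAB-like gene on chromosome 4, had 31.7 and 36.6 CPM in Nrf2-/- and 6.01 and 5.91 CPM in WT isosmotic libraries. The log2 difference was 2.52 ± 0.27 (adjusted p = 4.24e-06). At 1 h it had 20.9 and 43.2 CPM in Nrf2-/- and 5.48 and 5.20 CPM in WT libraries. No Nrf2-/- library overlapped any WT library. Zfp979 shares 19.8% of its 75-base stretches with other transcripts, its neighbours Zfp984, Zfp991 and Zfp992 share 41.6%, 80.0% and 34.5%, and how such reads were counted is not given in the sources used here. The part of shared reads in these values was not tested. Also on chromosome 4, Zfp462, which acts in heterochromatin of embryonic stem cells, had a log2 difference of 1.13, and Zfp292 had 1.05. Zfp292 had 96.4 and 107 CPM in Nrf2-/- and 45.0 and 52.9 CPM in WT isosmotic libraries.

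Zfp275, an 11-finger gene on chromosome X, had 129 and 123 CPM in Nrf2-/- and 37.7 and 42.0 CPM in WT isosmotic libraries, a log2 difference of 1.66 ± 0.17 (adjusted p = 2.35e-06), and 1.64 at 1 h. In WT cells with SFN it had 35.66 and 38.15 CPM at 1 h, not called against isosmotic, and 13.7 and 13.5 CPM at 6 h. With DMSO it had 37.0 and 36.8 CPM at 1 h and 12.8 and 10.2 CPM at 6 h. Zfp827 had 55.4 and 54.1 against 16.2 and 19.6 CPM isosmotic (log2 difference 1.61 ± 0.15). Zfp54 (1.44), Zfp990 (1.41), Zfp202 (1.34), Zfp386 (1.26) and Zfp12 (1.25) completed the 8 largest differences.

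The lower genes were led by Zfp469, with 2.87 and 2.12 CPM in Nrf2-/- and 8.29 and 9.73 CPM in WT isosmotic libraries, a log2 difference of -1.85 ± 0.28 (adjusted p = 0.00014). Zfp697 had 13.0 and 12.4 against 26.3 and 28.0 CPM (log2 difference -1.09 ± 0.11, adjusted p = 2.65e-06). Zfp703 had 43.3 and 38.8 against 71.2 and 78.4 CPM (-0.87). Zfp771 (-0.96), Zfp513 (-0.93), Zfp672 (-0.93), Zfp276 (-0.93) and Zfp382 (-0.70) were the others, of which Zfp382 alone was KRAB-like. Zfp697 overlaps several genes on the opposite strand.

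Of 35 Zfp genes listed for a known function 30 were among the 213. At 1 h 0 rose and 2 fell in WT (Zfp36 and Zfp263), beside 5.94% and 3.58% of all genes. By 6 h with SFN 11 rose and 7 fell against isosmotic cells, beside 24.7% and 22.9% of all genes. From 1 h to 6 h 14 rose and 5 fell in each arm, beside 20.9% and 21.7% of all genes with SFN and 20.4% and 22% with DMSO. By 6 h with SFN Zfp622, a maturation factor of the large ribosomal subunit, had a log2 fold change of 0.93, Zfp598, a ubiquitin ligase at collided ribosomes, 0.49, Zfp143, an activator of small nuclear RNA genes, 0.67, and Zfp131 0.98. Zfp568, a KRAB protein that represses a placental transcript of Igf2, rose by 1.14, from 39.9 and 42.6 to 94.3 and 87.6 CPM. Zfp809, which silences retroviruses, fell by 0.61, and Zfp746 (PARIS, a repressor of Ppargc1a) fell by 1.45 and Zfp318 by 1.11 on the log2 scale. Zfp57, the KRAB protein that keeps imprints, had no match to the KRAB pattern used here and was counted among other C2H2 genes. Zfp57 had 25.8 and 25.9 CPM isosmotic, 17.7 and 16.5 CPM at 1 h and 29.6 and 28.8 CPM at 6 h with SFN. Its rise from 1 h to 6 h was called (log2 fold change 0.77) and its change at 1 h was not (-0.60).

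Zfp532, Zfp592 and Zfp687 encode partners in a chromatin complex with Zmynd8. From 1 h to 6 h with SFN Zfp532 had a log2 fold change of -0.54 and Zfp687 -0.53, both called, and Zfp592 had 0.20, not called. Zfp148, which binds GC-rich promoters, had 216 and 216 CPM in Nrf2-/- and 109 and 122 CPM in WT isosmotic libraries (log2 difference 0.91). Zfp451, a SUMO ligase, was higher by 0.80 and Zfp638, an RNA-binding protein, by 0.64. Zfp346, which binds double-stranded RNA, had -0.64 and Zfp622 -0.44.

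The corepressors that KRAB proteins recruit were read beside them. Of 19 such genes tested 0 were called at 1 h in WT or Nrf2-/- cells by edgeR, with 1 in each line at an unadjusted p under 0.05. By 6 h with SFN, where 24.7% of all genes rose and 22.9% fell, 6 of the 19 rose, led by Atf7ip (log2 fold change 1.16), Morc2a (0.67) and Chd4 (0.48), and 3 fell, namely Smarcad1 (-1.13), Pphln1 (-0.80) and Mphosph8 (-0.33). Trim28 had 0.43 (adjusted p = 0.00401) and Setdb1 0.33 (adjusted p = 0.00499). In Nrf2-/- against WT isosmotic cells, where 15.7% of all genes were higher and 18.4% lower, 7 were higher, led by Atrx (1.16), Smarcad1 (0.88) and Cbx3 (0.88), and 3 lower, Hdac1 (-0.51), Dnmt1 (-0.45) and Pphln1 (-0.37). Of 25 genes of mRNA decay, 7 rose and 9 fell by 6 h, beside the same 24.7% and 22.9% of all genes, led upward by Zfp36l1 (2.27), Zfp36l2 (1.52) and Khsrp (0.82) and downward by Xrn1 (-1.40), Dcp1b (-1.19) and Edc3 (-0.74). For comparison, of 13 osmotic response genes 4 rose at 1 h and 11 at 6 h with SFN, with medians of 0.04 and 2.84, and of 22 immediate early genes 5 rose and 3 fell at 1 h and 15 rose and 4 fell at 6 h. Over all genes 5.94% rose and 3.58% fell at 1 h, and 24.7% and 22.9% at 6 h.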

How the data were processed

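The authors deposited raw read counts per gene symbol, 1 table for each of the 16 libraries, without normalization. The study's methods name alignment to mm10 with Hisat2, sorting with Samtools and counting with FeatureCounts, whereas the submitters' processing notes list Bowtie2. Versions, annotation, strand and the treatment of shared reads are not given in the sources used here. Among values of 1 to 10, between 58.0% and 68.5% per library were even, and counts may therefore not all stand for independent fragments. Total counts were 34484296 to 50774875. Groups came from the labels, which in 1 field call the RNA that of primary cells and elsewhere mIMCD3. Nameless lines, 2 and 3 in 2 libraries, were dropped.

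Counts were analysed in R 4.3.3 with edgeR 4.0.16, using TMM factors, filterByExpr, 1 coefficient per condition over all 16 libraries, the robust quasi-likelihood F-test and Benjamini-Hochberg adjustment over 19509 genes. Comparisons with DMSO isosmotic libraries, which chose the genes, were described and not tested. With 2 against 2 libraries an exact permutation test cannot go below a two-sided p of 0.333, so none was used. Positions, proteins, GC content and length came from GENCODE M21 (GRCm38) and promoters from RefSeq (GRCm38.p6). Members and lists were chosen with earlier results of these data known. Named genes are the 8 largest rises and falls per comparison among called genes whose libraries did not overlap, genes of known function, the 5 highest levels per kb, those at the floor and the 3 largest changes each way in other lists. The smallest p where none was called, the neighbours of Zfp979, Zfp157 and Zfp229 at 6 h, and Trim28, Setdb1 and Zfp36l2 at 1 h were named after their values were seen. Alternatives were DESeq2's size factors, DESeq2 1.42.0, no count filter, at least 10 counts in every library, fits of fewer libraries, a replicate block, leaving out each library and, chosen after seeing the data, removal of GC and length trends.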

Additional observations from a re-analysis of the deposited data

How the results depend on the processing

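For the Zfp genes named by the rule, called or not, 4744 recomputed values kept their side of the threshold, 149 passed it newly, 183 lost it and 12 that were not called passed it with the opposite sign. With GC and length trends removed, the latter were Zfp106 (log2 fold change -0.32) and Zfp609 (-0.29) at 6 h against SFN isosmotic, Zfp598 (-0.32) at 1 h in Nrf2-/- cells and Zfp687 (0.26) between the lines isosmotic. The others came from leaving out 1 library of Nrf2-/- cells at 1 h. At 1 h in Nrf2-/- cells the log2 fold change then ran from -0.38 to 0.26 for Zfp91, -0.33 to 0.29 for Zfp598, -0.56 to 0.41 for Zfp148, -0.43 to 0.52 for Zfp638 and -0.29 to 0.27 for Zfp706. The difference of stress effects ran from -0.59 to 0.43 for Zfp57 and -0.56 to 0.41 for Zfp148, and the difference between the lines at 1 h from -0.30 to 0.36 for Zfp91. The sign of 0 called values changed. Of the counts of Zfp genes called, 96 stayed within 1.5 times the reported count and 24 did not. At 1 h in WT, 35 calls became 71 with the 12 WT libraries alone, 59 with the 4 compared and 84 with GC and length trends removed. In Nrf2-/- cells at 1 h, 31 calls became 0 with the 4 libraries compared and 81 with those trends removed, and the 82 calls between the lines at 1 h became 14 with the 4 libraries compared. SFN against DMSO at 1 h gave 1 call with the WT libraries alone and 8 with those compared, and at 6 h 1 with those compared. The cause was not tested.

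Leaving out 1 library gave 16 to 21 calls at 1 h in WT and 14 to 95 in Nrf2-/- cells. It gave 48 to 62 calls between the lines isosmotic, 46 to 127 at 1 h and 0 to 22 for the difference in stress effect. The 6 h comparisons gave 110 to 114 against isosmotic, 103 to 111 from 1 h with SFN and 102 to 104 with DMSO. A group left with 1 library was assumed to vary like the others.

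The replicate numbers gave little sign of pairing: 1 of 28 pairs of conditions had a correlation of deviations over 0.1 (range -0.0794 to 0.123). These were taken over all genes tested without weights. Noise of low counts weakens them, so they cannot decide whether samples were paired. With the replicate number as a block, calls were 34 at 1 h in WT, 29 in Nrf2-/- cells, 133, 130 and 126 at 6 h, 84 and 78 between the lines, and 0 elsewhere. With a median SE of 0.17 on the log2 scale, small changes of single genes were not detectable.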
